A study of Mus musculus with 6 samples.

Results

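The adrenergic receptors are the G protein-coupled receptors that read noradrenaline and adrenaline. The genes described here are Adra1a, Adra1b, Adra1d, Adra2a, Adra2b, Adra2c, Adrb1 and Adrb3, taken by symbol from the count table, which gave 8 rows of 33274, 1 for each symbol. Counts were measured by RNA-seq of poly(A) RNA from cerebral cortex of wild type females of the outbred ICR strain, aged 6 weeks. The methylphenidate lineage (3 libraries) descended from males given methylphenidate, a blocker of the noradrenaline and dopamine transporters, under the skin at 15 mg/kg for 21 days. The saline lineage (3 libraries) descended from males given saline at 10 mL/kg in the same way. In both lineages the dosed males and then their F1 sons, 1 picked at random from each litter, were mated with undosed females, so the F2 females sampled were never dosed. The labels do not say which F2 animals shared a litter, a sire or a dosed grandsire, so the p-values rest on the spread among these 6 libraries, which may be smaller than that among unrelated animals. The comparison asks whether receptor RNA in the F2 cortex differs with what the dosed male was given.

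In the cortex, noradrenaline comes from axons of the locus coeruleus, a brainstem nucleus. Alpha1 receptors act through Gq and phospholipase C, alpha2 receptors act through Gi/o, lower cAMP and also sit on noradrenergic terminals as autoreceptors, and beta receptors act through Gs and raise cAMP. Alpha2A receptors of the prefrontal cortex are known for their part in working memory and are the target of guanfacine, a drug given for attention deficit, for which methylphenidate is also prescribed.

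Total counts lay between 23896752 and 28120640 per library in the methylphenidate lineage and between 24000528 and 26914606 in the saline lineage, and a count of 0 allowed up to 0.105 to 0.124 CPM (3 counts; counting error only). CPM here are counts scaled to a common library size after TMM normalization. Markers of cortical excitatory neurons were present in every library, with 9 of 9 tested, and their summed level was 1544 to 1819 CPM in the methylphenidate lineage and 1632 to 1748 CPM in the saline lineage. Of the markers of noradrenergic cell bodies, Dbh had 2 to 10 counts per library, Slc6a2 at most 3 and Phox2a at most 4, while Th had 11 to 46 and Slc18a2 43 to 110. These 5 genes summed to 3.99 to 6.46 CPM in the methylphenidate lineage and 2.30 to 5.52 CPM in the saline lineage. These are bulk samples, in which fewer cells of a type and less RNA per cell cannot be told apart.

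The 250 bases before the RefSeq start (build GRCm38.p6) are shown for Adrb1 and Adra2b, the receptor genes with the highest and the lowest CPM. Their windows hold no exon of the gene itself in GENCODE M21, and exons of other genes were not looked for. Capitals mark matches, on either strand, to the GC box GGGCGG and to TGACG, the core of the cAMP response element. Both windows are on the plus strand, at chr19:56721867-56722116 for Adrb1 and chr2:127362929-127363178 for Adra2b.
Adrb1: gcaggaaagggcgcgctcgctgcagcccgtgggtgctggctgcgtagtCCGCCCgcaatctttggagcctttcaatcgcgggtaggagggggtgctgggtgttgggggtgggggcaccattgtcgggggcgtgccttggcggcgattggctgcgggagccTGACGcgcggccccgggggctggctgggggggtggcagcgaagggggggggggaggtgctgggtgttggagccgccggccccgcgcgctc
Adra2b: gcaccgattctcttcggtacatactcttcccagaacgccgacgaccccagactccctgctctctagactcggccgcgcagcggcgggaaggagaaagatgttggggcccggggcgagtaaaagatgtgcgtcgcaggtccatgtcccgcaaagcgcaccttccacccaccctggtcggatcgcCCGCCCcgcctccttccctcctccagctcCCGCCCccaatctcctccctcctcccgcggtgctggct
The Adrb1 window had 1 GC box and 1 TGACG, and the Adra2b window had 2 GC boxes and no TGACG. Over 32851 RefSeq windows of the same length, 32.7% held GGGCGG and 17.8% held TGACG. Neither window held the full element TGACGTCA (1.55% of windows), TATAAA (12.4%) or CACGTG (6.02%). GC made up 74.0% of the Adrb1 window and 66.0% of the Adra2b window, against a median of 52.4% over all windows. RefSeq entries were matched for 5 of the 8 genes, Adra1b, Adra2a, Adra2b, Adra2c and Adrb1.

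The receptor genes differed widely in abundance. Per kilobase of exon, with lengths from the GENCODE M21 annotation of GRCm38, Adra1d stood first with a mean of 13.7 CPM per kilobase over the 6 libraries, followed by Adrb1 at 11.9. Both ranges overlapped, 10.2 to 16.7 for Adra1d and 11.2 to 13.5 for Adrb1, and Adra1d was above Adrb1 in 4 of 6 libraries. Adra2c and Adra1b formed the next step, at 5.76 and 5.48 CPM per kilobase, again with overlapping ranges, and Adra2c was above Adra1b in 2 of 6 libraries. Adra2c averaged 6.66 and Adra1b 5.05 CPM per kilobase in the methylphenidate lineage, against 4.86 for Adra2c and 5.91 for Adra1b in the saline lineage. Adra2a (3.52), Adra1a (1.47), Adrb3 (0.673) and Adra2b (0.0460) followed, each above the next in all 6 libraries. The counts are on GRCm39 with an annotation release that the sources used here do not give, so these lengths are approximate. RefSeq extends Adra1d by 707 bases beyond its GENCODE ends. With those bases its mean was 10.0 CPM per kilobase, below Adrb1 at 11.7, and with the longest transcript in place of all exons Adra1a stood at 2.99, with its place in the order unchanged.

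**Figure D1:**
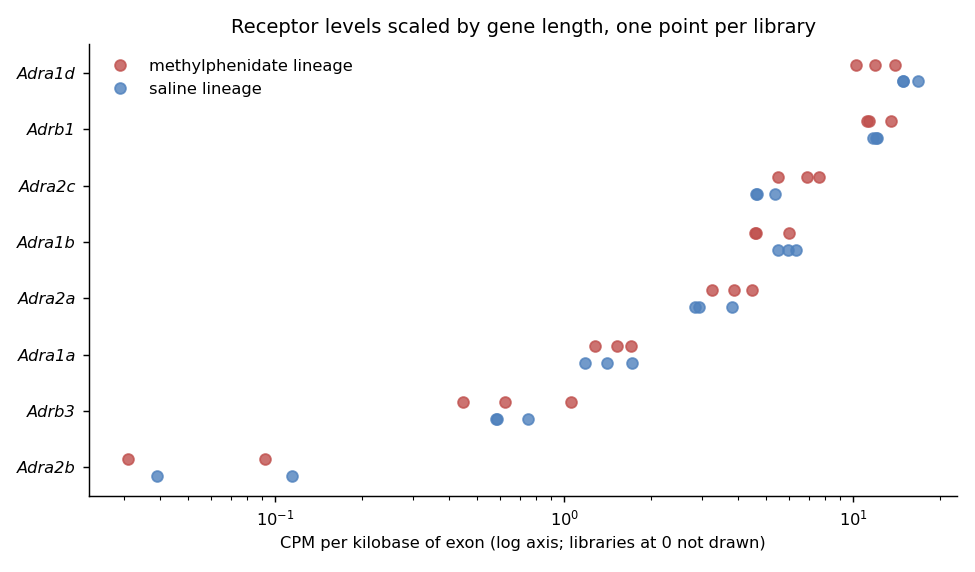
Level of each receptor gene in CPM per kilobase of exon on a log axis, with 1 point per library, the methylphenidate lineage above the saline lineage in each row, and libraries at 0 not drawn. Adra1d and Adrb1 lead with overlapping ranges (10.2 to 16.7 and 11.2 to 13.5), and Adra2b is lowest, at no more than 0.114.

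No receptor gene passed the threshold between the lineages. Of 18327 genes tested with the edgeR quasi-likelihood test, 5 (0.0273%) passed an adjusted p of 0.05, 4 with positive (0.0218%) and 1 with negative log2 fold change (0.00546%), and none of the 7 receptor genes tested was among them. Before adjustment, 2 of 7 receptor genes had p under 0.05, against 7.51% of all genes tested. These were Adra2c with a positive log2 fold change, as for 4.2% of all genes tested, and Adra1d with a negative one, as for 3.31%. The same 2 genes had groups that did not overlap in CPM, as did 13.5% of all genes tested (6.97% higher and 6.51% lower in the methylphenidate lineage). Without saline replicate 3 or methylphenidate replicate 3, Adra1d no longer had p under 0.05 before adjustment. The median log2 fold change (methylphenidate minus saline) was 0.07 over the 7 receptor genes, 5 of them above 0 and 2 below, and 0.00082 over all genes tested. Both 2-gene counts come from 7 genes, and no test was made over the receptor genes as a list.

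**Figure D2:**
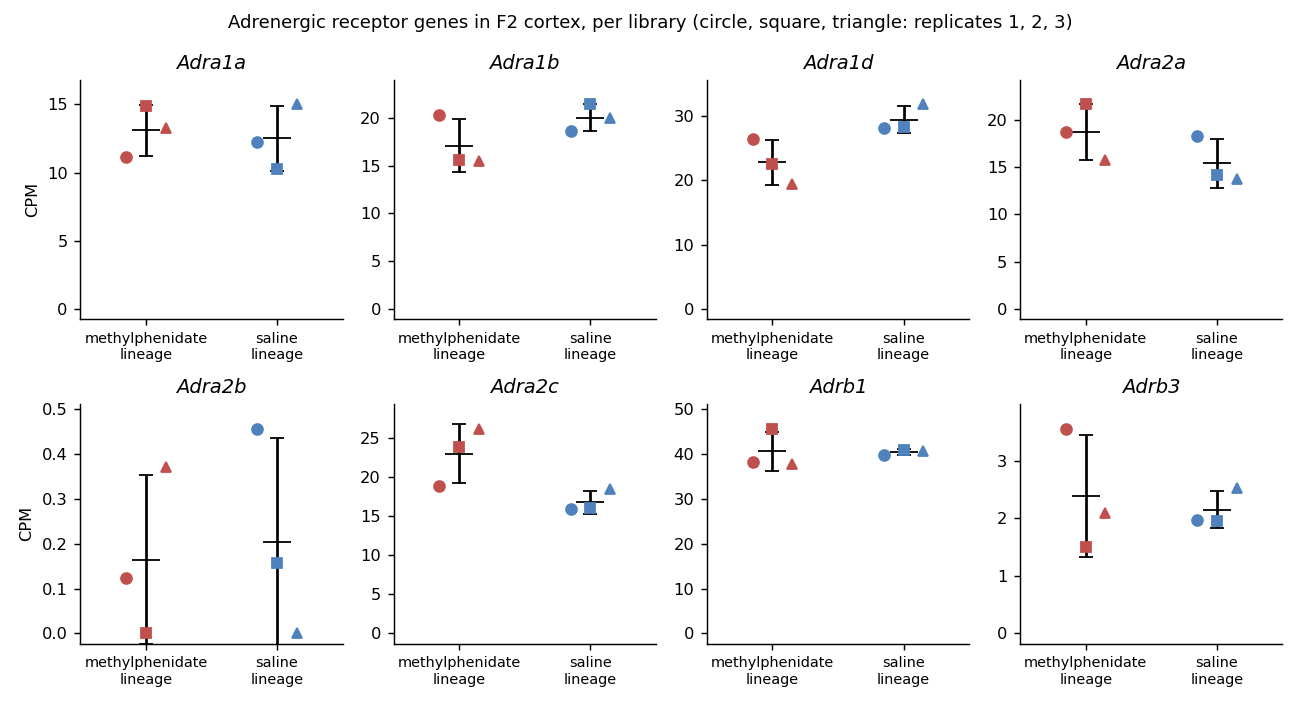
CPM of each receptor gene in every library, with the methylphenidate lineage at the left and the saline lineage at the right of each panel; bars show the mean and SD of 3 libraries. The methylphenidate and saline libraries are apart for Adra2c (methylphenidate 18.8 to 26.1, saline 15.8 to 18.4 CPM) and Adra1d (methylphenidate 19.4 to 26.4, saline 28.1 to 31.8 CPM), and overlap for the other genes.

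Among the alpha1 receptors, Adra1d (ENSMUSG00000027335) encodes the alpha1D receptor, which in the rodent brain is found mainly in cortex and hippocampus. It had 638, 640 and 471 counts in methylphenidate replicates 1, 2 and 3, against 738, 724 and 768 in saline replicates 1, 2 and 3. On the CPM scale these were 26.4, 22.5 and 19.4 CPM in the methylphenidate lineage and 28.1, 28.3 and 31.8 CPM in the saline lineage. Every methylphenidate library lay below every saline library, and the gap between the nearest ones, methylphenidate replicate 1 and saline replicate 1, was small beside the spread within the methylphenidate lineage. The means were 22.8 ± 3.5 CPM in the methylphenidate lineage and 29.4 ± 2.1 CPM in the saline lineage (SD, n = 3 each; log2 fold change -0.37, SE 0.12, 95% interval -0.64 to -0.10, edgeR adjusted p = 0.554). It stood 438th of 18327 genes in order of p. An antisense gene, Gm14285, shares 147 exon bases with Adra1d in GENCODE M21 and had 9, 17 and 17 counts in methylphenidate replicates 1, 2 and 3, against 3, 26 and 33 in saline replicates 1, 2 and 3. The sources used here do not say whether counting used strand, so reads of this stretch cannot be told apart, but the whole count of Gm14285 was at most 33.

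Adra1b (ENSMUSG00000050541) encodes the alpha1B receptor. It had 20.2, 15.6 and 15.4 CPM in methylphenidate replicates 1, 2 and 3, against 18.6, 21.4 and 20.01 CPM in saline replicates 1, 2 and 3. Methylphenidate replicates 2 and 3 lay below all saline libraries, and methylphenidate replicate 1 lay among them. The estimate for Adra1b was -0.23 (log2 fold change; SE 0.13, 95% interval -0.52 to 0.06, edgeR adjusted p = 0.750), and without methylphenidate replicate 1 it was -0.37 (edgeR adjusted p = 0.5002). Adra1a (ENSMUSG00000045875), for the alpha1A receptor, had 11.1, 14.9 and 13.3 CPM in methylphenidate replicates 1, 2 and 3, against 12.3, 10.3 and 15.0 CPM in saline replicates 1, 2 and 3. The 2 groups covered nearly the same range, and the log2 fold change was 0.07 (SE 0.17, 95% interval -0.31 to 0.45, edgeR adjusted p = 0.956). The interval of Adra1a allows a level between 0.807 and 1.36 times that of the saline lineage.

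Among the alpha2 receptors, Adra2c (ENSMUSG00000045318) encodes the alpha2C receptor, which in the rodent forebrain is most abundant in the striatum. It had 455, 679 and 635 counts in methylphenidate replicates 1, 2 and 3, against 416, 409 and 445 in saline replicates 1, 2 and 3. As CPM these were 18.8, 23.9 and 26.1 CPM in the methylphenidate lineage and 15.8, 15.97 and 18.4 CPM in the saline lineage. Every methylphenidate library was above every saline library, with methylphenidate replicate 1 close to saline replicate 3. The means were 22.9 ± 3.7 CPM in the methylphenidate lineage and 16.7 ± 1.4 CPM in the saline lineage (SD, n = 3 each; log2 fold change 0.46, SE 0.14, 95% interval 0.15 to 0.76, edgeR adjusted p = 0.480). This is a ratio of 1.37, and the gene stood 282nd of 18327 in order of p. The log2 fold change of Adra2c stayed above 0 in all 15 alternative fits, at 0.35 without methylphenidate replicate 3 and 0.58 without methylphenidate replicate 1, with an adjusted p of 0.231 or more in each of them.

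Adra2a (ENSMUSG00000033717) encodes the alpha2A receptor, the autoreceptor of noradrenergic neurons. It had 18.7, 21.6 and 15.7 CPM in methylphenidate replicates 1, 2 and 3, against 18.3, 14.1 and 13.7 CPM in saline replicates 1, 2 and 3. The groups overlapped, since saline replicate 1 lay above methylphenidate replicate 3. The estimate for Adra2a was 0.28 (log2 fold change; SE 0.16, 95% interval -0.07 to 0.63, edgeR adjusted p = 0.746), with 0.16 without methylphenidate replicate 2 and 0.43 without saline replicate 1. Adra2b (ENSMUSG00000058620), for the alpha2B receptor, had 3, 0 and 9 counts in methylphenidate replicates 1, 2 and 3, against 12, 4 and 0 in saline replicates 1, 2 and 3. Each lineage held a library with no count, and Adra2b did not pass the filter on low counts. A difference in Adra2b was not detectable at this depth. Without the filter, its log2 fold change of -0.34 had a 95% interval of -3.48 to 2.80 (edgeR adjusted p = 0.981).

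Among the beta receptors, Adrb1 (ENSMUSG00000035283) encodes the beta1 receptor, the receptor for noradrenaline in heart muscle and a main beta receptor of forebrain neurons. It had 38.2, 45.6 and 37.7 CPM in methylphenidate replicates 1, 2 and 3, against 39.6, 40.9 and 40.5 CPM in saline replicates 1, 2 and 3. The saline libraries lay within the range of the methylphenidate libraries. The means were 40.5 ± 4.4 CPM in the methylphenidate lineage and 40.3 ± 0.6 CPM in the saline lineage (SD, n = 3 each; log2 fold change 0.01, SE 0.09, 95% interval -0.20 to 0.22, edgeR adjusted p = 0.993). That interval runs from 0.869 to 1.16 times the saline level, the narrowest of the 7 receptor genes tested.

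Adrb3 (ENSMUSG00000031489), for the beta3 receptor known from fat cells, had 86, 43 and 51 counts in methylphenidate replicates 1, 2 and 3, against 52, 50 and 61 in saline replicates 1, 2 and 3. Methylphenidate replicate 1, at 3.56 CPM, stood above the other 5 libraries, which lay between 1.51 and 2.52 CPM. The lower bound of its exact Poisson interval was 2.85 CPM (counting error only). Upper bounds were 3.24 CPM for saline replicate 3, so these 2 intervals overlap, and at most 2.76 CPM for the other libraries. The estimate for Adrb3 was 0.15 (log2 fold change; SE 0.35, 95% interval -0.63 to 0.93, edgeR adjusted p = 0.952), and it was -0.26 without methylphenidate replicate 1. Of the fat cell genes Adipoq and Ucp1, no library had more than 4 counts, while the fat cell list (3 of 4 genes with a row) summed to 1.53 to 2.42 CPM in the methylphenidate lineage and 0.859 to 1.82 CPM in the saline lineage. The antisense gene Gm45470 shares 839 exon bases with Adrb3 in GENCODE M21 and had 33, 49 and 81 counts in methylphenidate replicates 1, 2 and 3, against 73, 32 and 60 in saline replicates 1, 2 and 3. Its counts were of the same order as those of Adrb3, above them in 3 libraries and below them in 3, among them methylphenidate replicate 1, so the level of Adrb3 is uncertain.

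**Figure D3:**
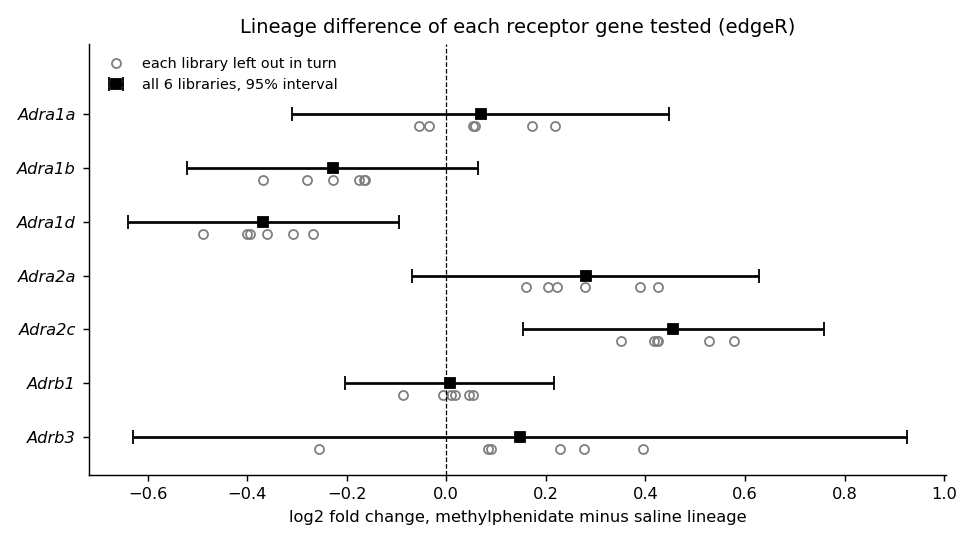
Log2 fold change of each receptor gene tested, methylphenidate minus saline lineage, with its 95% interval from all 6 libraries (squares) and the values with each library left out in turn (open circles). The intervals of Adra1d (-0.64 to -0.10) and Adra2c (0.15 to 0.76) do not include 0, but neither gene passed after adjustment over 18327 genes.

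The libraries of the methylphenidate lineage were the more variable in most receptor genes. The coefficient of variation of CPM was 16.3% in the methylphenidate lineage and 8.62% in the saline lineage for Adra2c. In the methylphenidate lineage against the saline lineage it was 15.5% against 7.03% for Adra1d, 16.1% against 7.07% for Adra1b, 10.8% against 1.56% for Adrb1 and 44.2% against 14.9% for Adrb3. For Adra1a and Adra2a it was the smaller in the methylphenidate lineage, at 14.4% and 15.9%, against 19.0% and 16.7% in the saline lineage. Counting alone would give 3.09% in the methylphenidate lineage and 3.13% in the saline lineage for Adrb1, and at most 5.63% in either lineage for the alpha receptor genes tested. In the methylphenidate lineage all of these values were above counting error, which for Adrb3 was 12.9%. In the saline lineage the Adrb1 value of 1.56% was below counting error (3.13%). The saline Adrb3 value of 14.9% was near counting error (13.6%), and those of the alpha receptor genes tested were above it. The difference in spread between lineages was not tested, and spread was not compared over all genes, so it need not be particular to the receptor genes.

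Ratios between receptor genes within a library do not depend on how libraries are scaled. The count of Adra2c was 0.713, 1.06 and 1.35 times that of Adra1d in methylphenidate replicates 1, 2 and 3, against 0.564, 0.565 and 0.579 times in saline replicates 1, 2 and 3. This pair was chosen after its values were seen, so the ratio is given as a description. The count of Adra2c was 1.01, 1.10 and 1.67 times that of Adra2a in methylphenidate replicates 1, 2 and 3, against 0.865, 1.13 and 1.34 times in saline replicates 1, 2 and 3, which overlap. In the sum of the 8 genes per kilobase, alpha1 genes made up 49.4, 41.8 and 41.8% in methylphenidate replicates 1, 2 and 3, against 51.0, 52.5 and 53.8% in saline replicates 1, 2 and 3. Alpha2 genes made up 21.8, 26.2 and 28.0% in the methylphenidate lineage and 20.002, 17.8 and 18.1% in the saline lineage. Beta genes made up 28.8 to 32.0% in the methylphenidate lineage and 28.1 to 29.7% in the saline lineage, and the total of the 8 genes was 39.0 to 43.5 CPM per kilobase in the methylphenidate lineage and 42.5 to 45.3 in the saline lineage. The alpha1 and alpha2 shares did not overlap between lineages, while the beta share and the total did. Adra1d and Adra2c, the 2 genes whose groups did not overlap, were the largest parts of the alpha1 and alpha2 sums. The shares are parts of the same total and repeat the values of these 2 genes, so they are given as a description.

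Marker genes of other brain regions were also unevenly present between libraries. Markers of striatal projection neurons, which lie below the cortex, summed to 533, 295 and 673 CPM in methylphenidate replicates 1, 2 and 3, against 313, 258 and 229 CPM in saline replicates 1, 2 and 3, with a higher mean in the methylphenidate lineage for 10 of 11. None of the 11 was at 0 in all libraries. Of the 10 tested none passed the threshold, and their median log2 fold change was 1.07. In 5 of the 10 the groups did not overlap, against 13.5% of all genes tested (6.97% higher in the methylphenidate lineage). All 5 were higher in the methylphenidate lineage, replicate 2 included. Methylphenidate replicate 3 had both the highest striatal sum and the highest Adra2c level of all libraries. The order of the other libraries differed between the 2 measures. Methylphenidate replicate 2 had the lowest striatal sum of its lineage and an Adra2c level of 23.9 CPM, and saline replicate 3 had the lowest striatal sum of all and the highest Adra2c level of its lineage. With 1 library left out at a time, the log2 fold change of Adra2c was 0.58 without methylphenidate replicate 1 and 0.35 without methylphenidate replicate 3. Each of these fits kept the other of the 2 libraries with the highest striatal sums. The part of striatal tissue in the Adra2c values was not tested.

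Markers of hypothalamic and basal forebrain neurons summed to 14.3, 11.8 and 37.3 CPM in methylphenidate replicates 1, 2 and 3, against 5.79, 4.37 and 4.797 CPM in saline replicates 1, 2 and 3, with a higher mean in the methylphenidate lineage for 11 of 12. Of these 12, Oxt and Hcrt had at most 10 counts in every library, and 8 were tested. None of the 8 passed the threshold, and in 4 the groups did not overlap, against 13.5% of all genes tested. Thalamic markers summed to 81.5 to 117 CPM in the methylphenidate lineage and 68.5 to 80.5 CPM in the saline lineage, with 6 of 7 higher. In 1 of the 7 the groups did not overlap, and none passed the threshold. Choroid plexus markers summed to 46.3, 26.8 and 8.61 CPM in methylphenidate replicates 1, 2 and 3. In saline replicates 1, 2 and 3 they summed to 8.68, 75.1 and 46.6 CPM, so the lineages overlapped. None of these 6 markers had a higher mean in the methylphenidate lineage. Among cortical excitatory markers, 7 of 9 had a lower mean in the methylphenidate lineage, and the median log2 fold change was -0.27. In 4 of the 9 the groups did not overlap, against 13.5% of all genes tested. The sums of this list overlapped between the lineages. Whether the mix of cells sampled had a part in the Adra1d values was not tested.

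**Figure D4:**
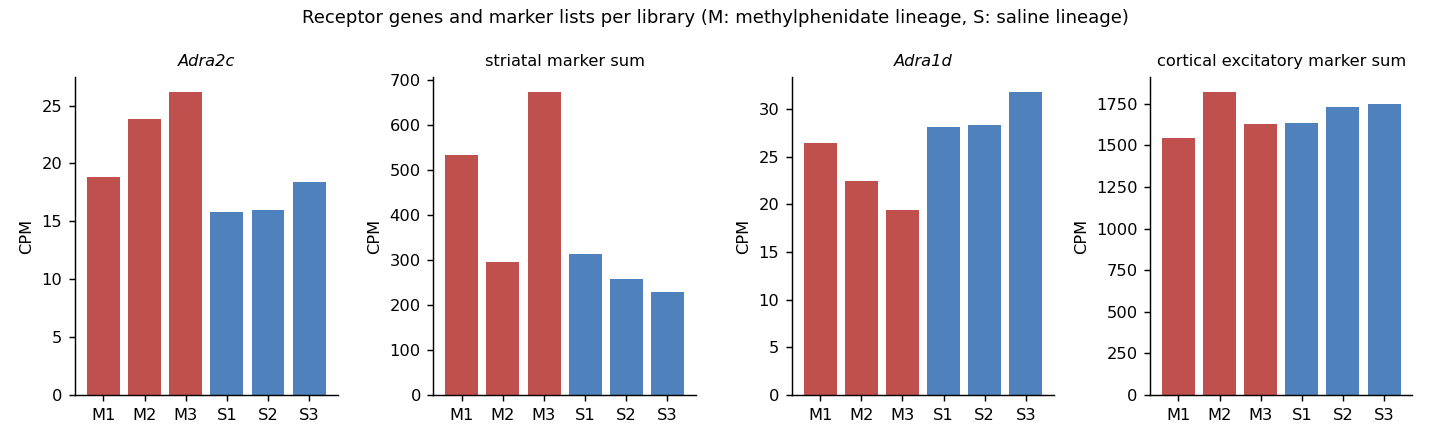
CPM of Adra2c and Adra1d in each library beside the summed CPM of the striatal (11 genes) and cortical excitatory (9 genes) marker lists; M and S are the methylphenidate and saline lineages with their replicate numbers, and bars start at 0. Methylphenidate replicate 3 has the highest Adra2c level (26.1 CPM) and the highest striatal sum (673 CPM). Methylphenidate replicate 2 has an Adra2c level of 23.9 CPM and a striatal sum of 295 CPM, within the range of the saline libraries. In the 5 striatal markers whose groups did not overlap, methylphenidate replicate 2 lay above every saline library. The part of striatal tissue was not tested.

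The astrocyte, oligodendrocyte, microglia and interneuron lists did not set the lineages apart in their sums. Astrocyte markers, for example, summed to 4881 to 5695 CPM in the methylphenidate lineage and 4897 to 5528 CPM in the saline lineage. Mural cell markers, of interest because alpha1 receptors act on vessel muscle, had lower means in the methylphenidate lineage for 7 of 7, with sums of 178 to 186.5 CPM in the methylphenidate lineage and 186.2 to 222 CPM in the saline lineage, which overlap.

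The pathway around the receptors was read from 8 lists holding 91 genes, of which 88 were tested. None passed the threshold over all genes tested. Before adjustment, 11 of them had p under 0.05, 7 with positive and 4 with negative log2 fold changes, or 12.5% of those tested, and the groups did not overlap in 18 of 88, or 20.5%. The figures over all genes tested were 7.51% and 13.5%. No test was made over these lists, which were chosen with earlier results of these data known.

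**Figure D5:**
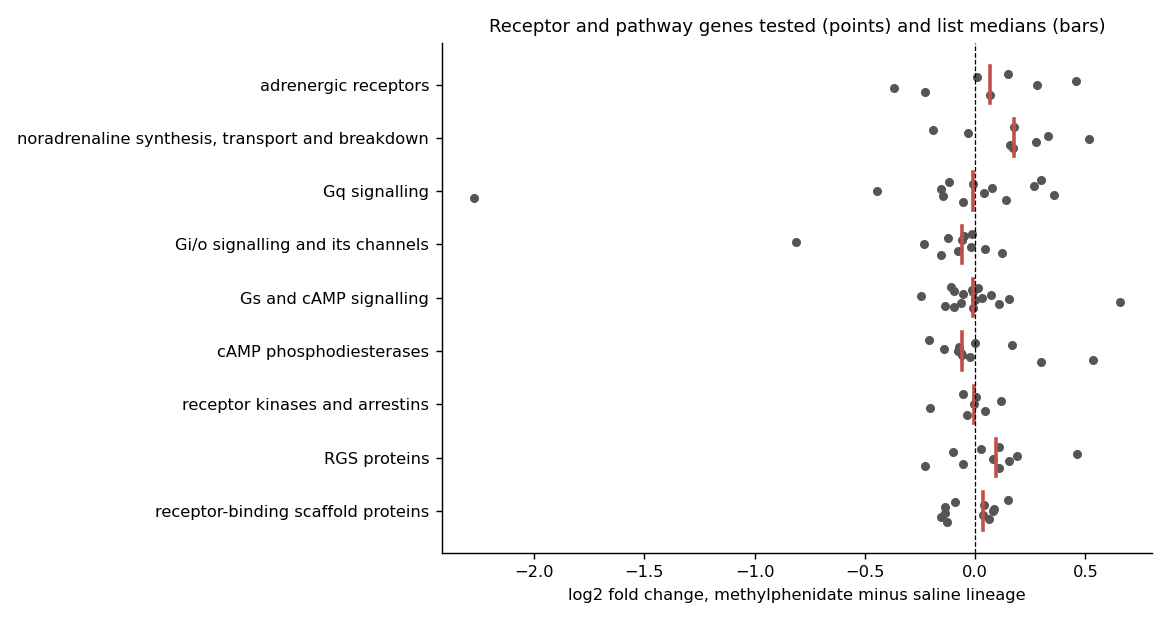
Log2 fold changes, methylphenidate minus saline lineage, of the receptor genes and the genes of 8 pathway lists that were tested (points), with the median of each list (bars). List medians lie between -0.06 and 0.17, and no point passed the threshold; the point far left is Gna14, with at most 20 counts in a library.

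Genes that make, carry or break down noradrenaline had a median of 0.17 on the log2 scale, from the 8 tested of 11, with none past the threshold in either direction. Slc29a4, a low-affinity monoamine carrier, had 12.0, 9.62 and 10.7 CPM in methylphenidate replicates 1, 2 and 3, against 7.80, 9.02 and 8.85 CPM in saline replicates 1, 2 and 3 (log2 fold change 0.33, SE 0.15, edgeR adjusted p = 0.660). The median of this list was 0.01 without methylphenidate replicate 1.

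The Gq list, through which alpha1 receptors act, had a median of -0.01 on the log2 scale over 13 genes, 6 above 0 and 7 below, with none past the threshold. Plcb4, a phospholipase C gene, had 85.9, 81.4 and 55.3 CPM in methylphenidate replicates 1, 2 and 3, against 105.1, 110.8 and 87.0 CPM in saline replicates 1, 2 and 3 (log2 fold change -0.44, SE 0.15, edgeR adjusted p = 0.563). Its groups did not overlap, as was the case for Adra1d. Gna14, a Gq-family alpha subunit picked out here for its place in the plot, had 7, 2 and 0 counts in methylphenidate replicates 1, 2 and 3, against 20, 13 and 12 in saline replicates 1, 2 and 3, too few for a firm fold (edgeR adjusted p = 0.591). The median of the Gq list lay between -0.04 and 0.02 over the alternatives, with either sign.

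The Gi/o list, with channels that alpha2 receptors modulate, had a median of -0.06 over 11 genes, 2 above 0 and 9 below, and none passed the threshold. Kcnj3, a subunit of the G protein-gated potassium channel, stood at -0.23 ± 0.10 (log2 fold change and SE; adjusted p = 0.636 in edgeR). Gnai1, an inhibitory G protein alpha subunit, stood at -0.16 ± 0.07 (adjusted p = 0.681 in edgeR). 

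The Gs and cAMP list had a median of -0.01 over 17 genes (-0.06 without saline replicate 3), 6 above 0 and 11 below, with none past the threshold. Adcy5, the main adenylyl cyclase of striatal neurons, had 218, 175 and 293 CPM in methylphenidate replicates 1, 2 and 3, against 172, 126 and 137 CPM in saline replicates 1, 2 and 3 (log2 fold change 0.66, SE 0.17, edgeR adjusted p = 0.353). Its order was that of the striatal marker sum in the methylphenidate lineage, while in the saline lineage replicates 2 and 3 changed places. The part of striatal tissue in the Adcy5 values was not tested. Adcy2, another cyclase, stood at -0.14 ± 0.06 (log2 fold change and SE; adjusted p = 0.672 in edgeR). The cAMP phosphodiesterases, which end the signal, had a median of -0.06 over 11 genes, 4 above 0 and 7 below, with none past the threshold. Pde2a stood at 0.30 ± 0.10 (log2 fold change and SE; adjusted p = 0.534 in edgeR) and Pde8b at -0.21 ± 0.07 (adjusted p = 0.558 in edgeR), each with groups that did not overlap.

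Receptor kinases and arrestins, which switch off and internalise active receptors, had a median of -0.01 over 7 genes, 3 above 0 and 4 below, and none had an unadjusted p under 0.05. Grk6 and Grk4 stood at 0.12 ± 0.07 and -0.20 ± 0.28 (log2 fold change and SE), and edgeR gave adjusted p = 0.750 and 0.913. RGS proteins, which speed up the shut-off of G proteins, had a median of 0.09 over 10 genes (0.03 without methylphenidate replicate 2), 7 above 0 and 3 below, with none past the threshold. Rgs14 had 36.1, 36.1 and 56.4 CPM in methylphenidate replicates 1, 2 and 3, against 29.3, 33.7 and 30.3 CPM in saline replicates 1, 2 and 3 (log2 fold change 0.46, SE 0.17, edgeR adjusted p = 0.585), and Rgs12 stood at 0.19 ± 0.08 (log2 fold change and SE; adjusted p = 0.657 in edgeR). Scaffold proteins that bind the receptors had a median of 0.04 over 11 genes, 6 above 0 and 5 below, and of -0.03 without methylphenidate replicate 3. None of them passed the threshold, and Dlg1 and Magi2 stood at -0.13 ± 0.06 and -0.15 ± 0.08 (log2 fold change and SE), for which edgeR gave adjusted p = 0.685 and 0.698.

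Genes whose log2 CPM ran most like a receptor gene over the 6 libraries were taken from 11520 candidates with a mean of at least 5 CPM. For Adra2c these were Nagk and Scamp2, with Pearson r of 0.997 and 0.990, and 60 candidates reached an r of 0.95. For Adra1d they were Prkag2, a subunit of the AMP-activated kinase, and Ppm1b, with r of 0.998 and 0.992, and 31 candidates reached 0.95. For Adra2a they were Cracd and Tusc2 (0.983 and 0.9755), for Adra1a Inhbb and Mvk (0.989 and 0.985), for Adrb1 Cd200 and Rusc1 (0.988 and 0.980), and for Adrb3 Tnfrsf11a and Zfp711 (0.985 and 0.980). For Adra1b they were Tlcd5 and Rpl15-ps6 (0.984 and 0.984), the last a pseudogene whose reads can be shared with its parent. These are the highest of many values from 6 libraries, which share their depth and their mix of cells, and are given as a description only.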

How the data were processed

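RNA-seq of cerebral cortex was deposited as whole-number counts per Ensembl gene, 1 column per library and not normalized, per the file headers, and the authors paired identifiers with symbols in the same table. Per the submitters' processing notes, the build was GRCm39 and the tools included HISAT2 2.2.1, StringTie 2.2.1, fastp 0.23.4 and bcl2fastq 2.19, with no role stated. Which annotation was used, and whether strand was, the sources used here do not give. Of 33274 rows, 985 had no symbol, with at most 0.175% of a library's counts.

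Tests used edgeR 4.0.16 in R 4.3.3 (filterByExpr at a minimum count of 10, TMM, glmQLFit and glmQLFTest, group as the only term, two-sided, Benjamini-Hochberg adjustment over all 18327 genes tested, threshold 0.05). Standard errors came from the log2 fold change and its F statistic (absolute value over root F). The analysis was tested on simulated data. Pairs of libraries within a group had chi-square values of 13.0 to 19.9 per degree of freedom, far from the value of 1 that sampling alone gives, so none was a duplicate. Alternatives used DESeq2 1.42.0, limma 3.58.1 (voom), other scalings and filters, a replicate block and leaving out each library.

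The receptor genes and lists were chosen with earlier results of these data known. Of the lists, the 2 tested genes of smallest p were named besides any past the threshold, except some that are not reported here. Likeness used log2 CPM with a prior count of 2. Another gene of the receptor family is not analysed here. Lengths, overlaps and upstream sequence came from GENCODE M21 and RefSeq on GRCm38, another build than that of the counts.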

Additional observations from a re-analysis of the deposited data

How the results depend on the processing

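In 100 of 105 alternative fits of the 7 receptor genes tested, 15 for each gene, the log2 fold change kept its direction and the gene stayed on the same side of the threshold. The exceptions came from leaving out a library. Leave-one-out values ran from -0.055 to 0.22 for Adra1a (below 0 without methylphenidate replicate 2 or saline replicate 2, at -0.03 and -0.055), from -0.087 to 0.055 for Adrb1 (below 0 without methylphenidate replicate 2 or saline replicate 1, at -0.087 and -0.0064) and from -0.26 to 0.40 for Adrb3 (below 0 without methylphenidate replicate 1). They ran from -0.37 to -0.16 for Adra1b, from -0.49 to -0.27 for Adra1d, from 0.16 to 0.43 for Adra2a and from 0.35 to 0.58 for Adra2c. Adra1d had an unadjusted edgeR p of 0.0515 without methylphenidate replicate 3 and likewise without saline replicate 3. No receptor gene and no gene of the pathway lists passed in any alternative, also with DESeq2, where Adra2c had an adjusted p of 0.241 and Adra1d of 0.338.

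The count of all genes past the threshold was 5, and it was 10 with total counts, 3 without a filter, 2 with the replicate block, 149 with DESeq2 and 2 to 26 with a library left out; the cause was not tested. Same-numbered libraries of the 2 lineages had correlations of -0.04, 0.09 and -0.02 in their deviations, and other pairs had -0.11 to 0.13. No pairing by number was seen, though 6 libraries cannot exclude it. With the replicate block Adra2c had a log2 fold change of 0.45 and Adra1d of -0.38. Of 120 list medians under alternatives, 4 moved by more than the SD between replicates. The lengths of Adra1a, Adra1d and Adrb1, as given by the exons used, moved their levels per kilobase, an alternative chosen after seeing the data. Depth limited Adra2b.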
